A study of Mus musculus with 6 samples.

Results

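The miR-21a hairpin gives rise to 2 mature microRNAs (miRNAs), mmu-miR-21a-5p and mmu-miR-21a-3p, and both were taken by name from 911 mature miRNA references counted in bone-marrow-derived macrophages. The libraries came from 3 biological replicates of ApoE-knockout (EKO) mice, which lack the lipid-transport protein apolipoprotein E, and 3 of wild-type (WT) mice. Marrow of male mice aged 6 to 12 weeks was differentiated with macrophage colony-stimulating factor (M-CSF) at 25 ng/mL, given every 2 days over 6 days, in medium with 10% serum, and this held for both genotypes. The labels give neither the design of the ApoE-KO allele nor a strain for either genotype, and small RNA counts hold no Apoe mRNA that could check them. The miRNAs were picked with earlier results of these data known, and they were described as most abundant in WT, which holds for the 5p arm alone.

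A miRNA hairpin is cut by Drosha and Dicer into a short duplex, of which mostly 1 strand, the guide, is loaded into Argonaute, while the other, the passenger, is degraded. The guide finds its targets largely through its seed, bases 2 to 8. In macrophages miR-21 is induced by inflammatory and growth signals through AP-1, NF-kB and STAT3, and it represses the transcript of Pdcd4, an inhibitor of translation that holds back interleukin-10. It is known there for limiting the inflammatory response after Toll-like receptor stimulation and after uptake of dying cells.

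In GRCm38.p6 the Mir21a hairpin of 92 bases lies at chr11:86584067-86584158 on the minus strand (RefSeq). GENCODE M21 places it inside an exon of Vmp1, an autophagy gene on the same strand, within the untranslated part at the 3′ end of its coding transcript. The 5p arm takes bases 18 to 39 of the hairpin and the 3p arm bases 56 to 77, with 16 bases between them. The deposited files give no coordinates, and the submitters' notes name mm9, so these positions only say where the gene is. The 4 mature sequences below, from RefSeq, are shown with the seed in capitals, because miR-21b and miR-21c are close enough to miR-21a-5p to share some of its reads.
miR-21a-5p: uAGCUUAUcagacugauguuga
miR-21a-3p: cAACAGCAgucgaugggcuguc
miR-21b: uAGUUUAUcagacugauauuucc
miR-21c: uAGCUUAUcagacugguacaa
Counted from the 5′ end, miR-21b carries C4U, G18A, G21U and A22C relative to miR-21a-5p, so that its seed differs at 1 base. miR-21c has the seed of miR-21a-5p and carries A16G, G18A, U19C, U20A and G21A. GC bases make up 36.4% of miR-21a-5p and 59.1% of miR-21a-3p.

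The guide arm miR-21a-5p took a smaller part of the miRNA pool in the EKO macrophages. Its share of all mature miRNA reads was 13.8%, 15.2% and 16.4% in the 3 EKO libraries and 21.0%, 22.3% and 22.1% in the 3 WT libraries. The highest EKO share lay below the lowest WT share. A high share in WT follows in part from the choice of miR-21a as most abundant there. That side is therefore no support, here or in the comparisons below. The means were 15.1% ± 1.34 and 21.8% ± 0.711 (SD, n = 3 each), a difference of -6.65 percentage points (two-sided exact permutation p = 0.1, the smallest that 3 against 3 allows). Over the 6 values tested in this way (2 shares, 2 numbers of distinct sequences, the arm ratio and the ratio to let-7i-5p), the adjusted p was 0.2 (exact test, Benjamini-Hochberg). Libraries held 34651516 to 41331600 mature reads, so counting error was small beside the spread between replicates (EKO replicate 1, 95% Wilson interval 13.75% to 13.77%). Intervals cover counting error only, since reads without molecular barcodes are not independent molecules.

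**Figure D1:**
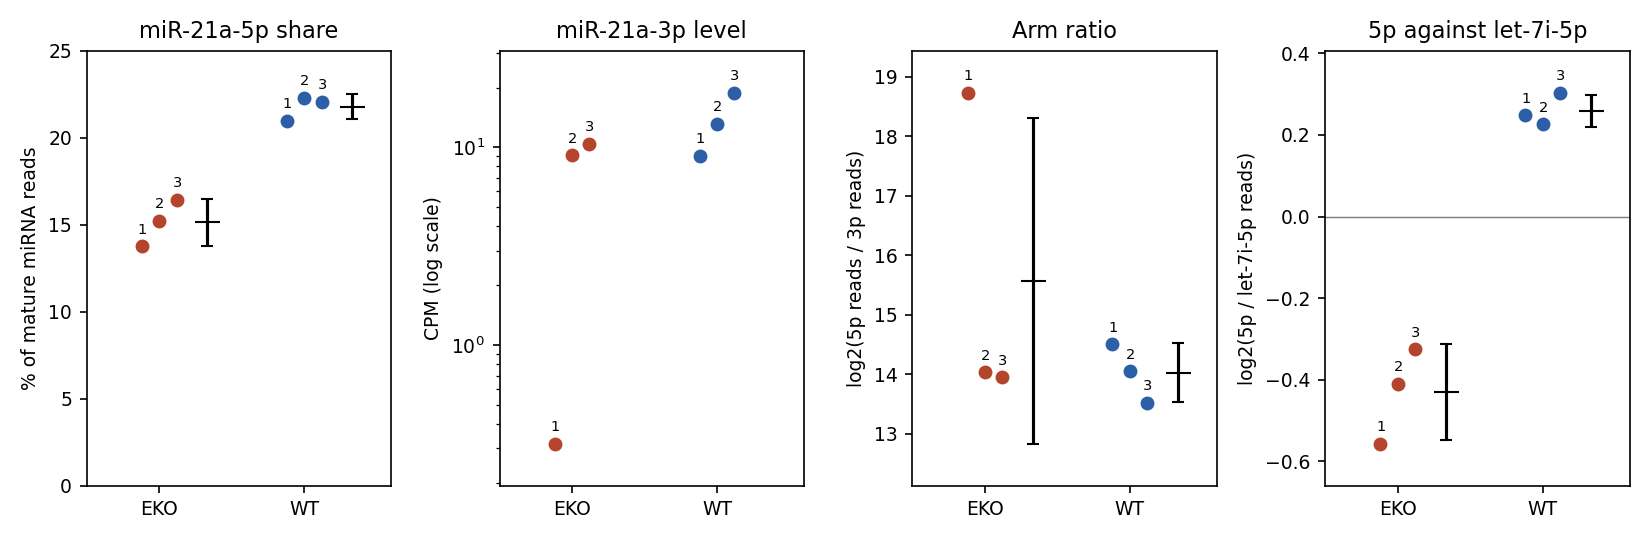
Values of the 2 miR-21a arms in each library, EKO in red and WT in blue, with replicate numbers beside the points and mean ± SD in black except on the log axis. The y axes give the miR-21a-5p share of mature reads in %, the miR-21a-3p level in CPM (log scale), the log2 ratio of 5p to 3p reads, and the log2 ratio of miR-21a-5p to let-7i-5p reads. The genotypes are apart in the first and last panel, and EKO replicate 1 stands alone in the 3p level (0.317 CPM) and in the arm ratio.

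Mature read totals of the genotypes overlapped, and reads on the other miRNAs were alike in their means. Reads on miR-21a-5p averaged 5627968 in EKO and 8772611 in WT, while reads on all other mature miRNAs together averaged 31461535 and 31455728 (SD 1861384 and 941910). Per read of all other miRNAs there were 0.160, 0.180 and 0.197 reads of miR-21a-5p in EKO and 0.265, 0.287 and 0.283 in WT. Read numbers also depend on sequencing depth, so like means do not show that miR-21a-5p alone differed. Among the others, miR-148a-3p took 11.2% of mature reads in EKO and 5.78% in WT, and let-7g-5p 1.63% and 2.48%. A share of sequenced reads does not tell fewer copies per cell from fewer cells that express the miRNA.

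In a fit across all miRNAs miR-21a-5p had a log2 fold change (EKO over WT) of -0.50 ± 0.09 (SE), a level 0.707-fold that of WT, with an unadjusted p of 0.000456 and, after Benjamini-Hochberg adjustment over 575 miRNAs, an adjusted p of 0.0766 (quasi-likelihood test of edgeR). It therefore missed the threshold of 0.05, as did every other tested miRNA (0 of 575, or 0%, called in either direction). Only 1 miRNA had a smaller p. At an unadjusted p under 0.05 the same edgeR fit had 75 miRNAs lower (13.0%) and 48 higher (8.35%), DESeq2 called 51 lower (7.30%) and 49 higher (7.01%) at an adjusted p under 0.05, and limma-voom 23 and 9 (1.57%). For 102 of 575 miRNAs (17.7%) all EKO levels lay below all WT levels, so groups that do not overlap were common. In size the change was not extreme: 197 of 575 miRNAs (34.3%) had a lower log2 fold change, and the median of all tested was -0.16.

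**Figure D2:**
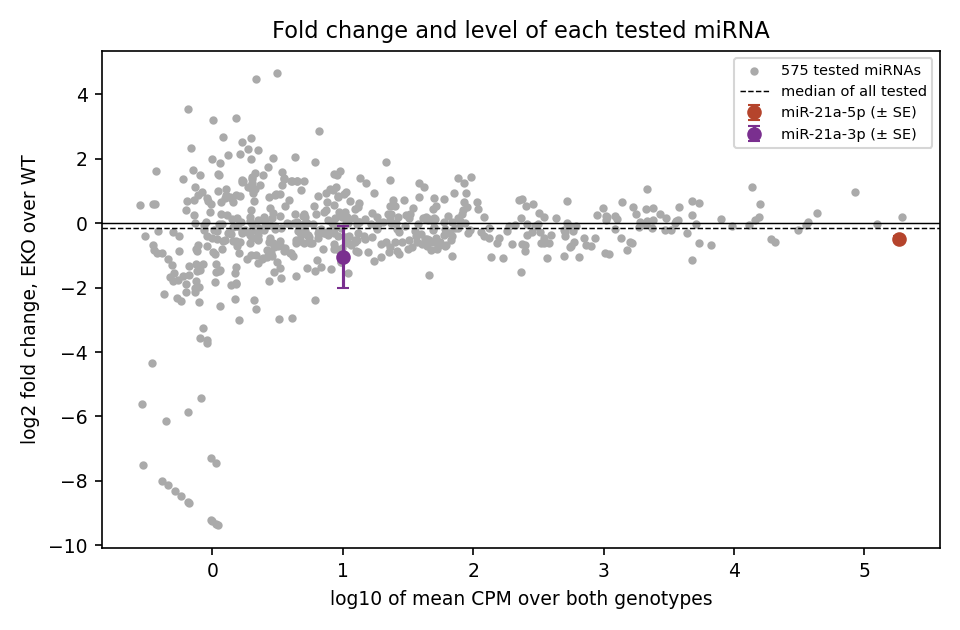
Log2 fold change of each of the 575 tested miRNAs (EKO over WT, y axis) against the log10 of its mean CPM (x axis), with miR-21a-5p and miR-21a-3p coloured and their SE as bars, the SE of the 5p arm being smaller than its symbol. At the far right, miR-21a-5p lies at -0.50, and at about 10 CPM, miR-21a-3p lies at -1.05 with a wide error, both below the dashed median of -0.16.

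Other settings moved miR-21a-5p across the threshold without changing its direction. With a restriction to the 251 miRNAs averaging at least 10 CPM (counts per 1e+06 mature reads) the log2 fold change was -0.47 ± 0.07 and the adjusted p 0.0228 (edgeR), and 32 of 251 miRNAs (12.7%) were called lower and 27 (10.8%) higher. DESeq2 gave an adjusted p of 0.00265 and limma-voom one of 0.0105. Base composition moved with the fold changes. Among the restricted miRNAs with a known sequence, the median log2 fold change was -0.44 for the 34 with a GC content under 40%, as in miR-21a-5p, -0.21 for 78 between 40% and 50%, 0.09 for 70 between 50% and 60%, and 0.07 for 39 at 60% or more. With each library's trend along GC content removed, miR-21a-5p stood at -0.13 ± 0.13 and did not pass (adjusted p = 0.475, edgeR), where 15 of 251 miRNAs (5.98%) were called lower and 25 (9.96%) higher. Centring on the median without a GC term left it at -0.43 (adjusted p = 0.0228, edgeR).

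**Figure D3:**
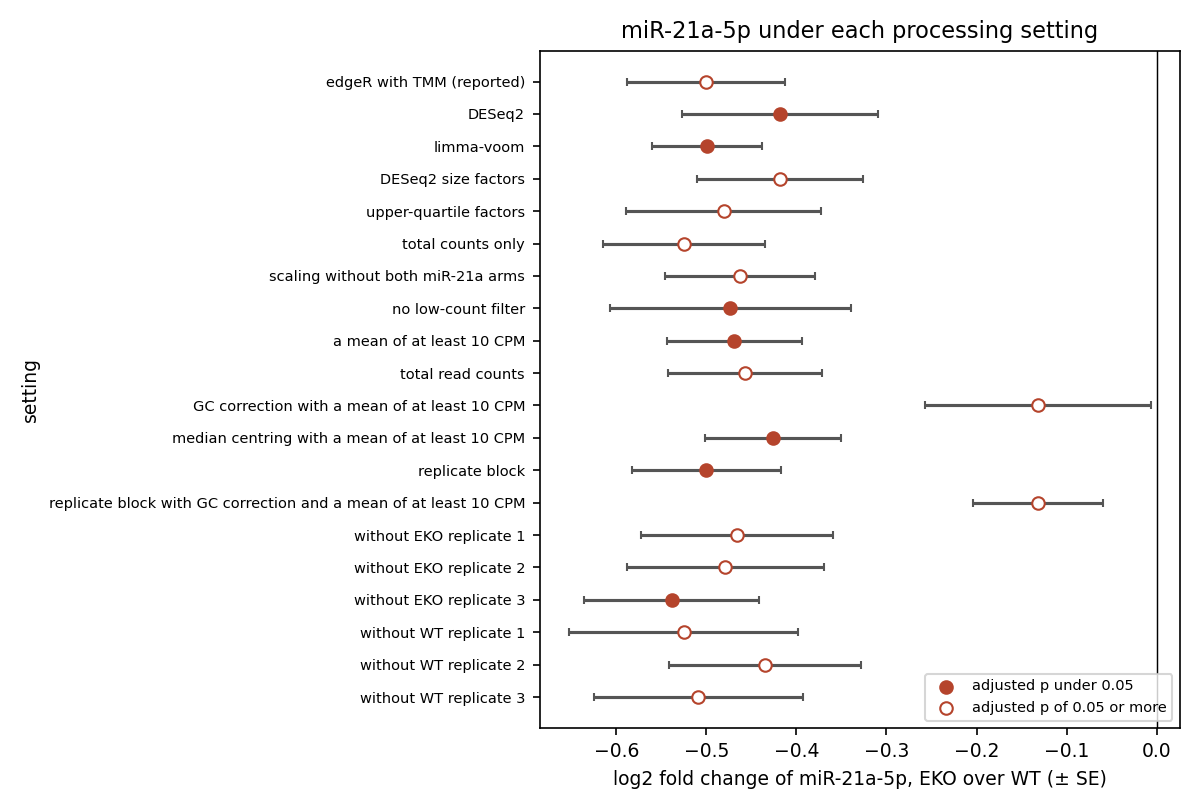
Log2 fold change of miR-21a-5p (EKO over WT, x axis, bars are SE) under each processing setting (y axis), filled where the adjusted p was under 0.05. All values are below 0, from -0.54 without EKO replicate 3 to -0.13 with the GC trend removed.

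Set against other abundant miRNAs in the same library, which needs no scaling, miR-21a-5p was lower in EKO relative to most of them. The nearest in level was let-7i-5p, a guide strand of the let-7 family, whose members favour differentiation over growth. There were 0.680, 0.753 and 0.798 reads of miR-21a-5p per read of let-7i-5p in EKO and 1.19, 1.17 and 1.23 in WT, below 1 in every EKO library and above 1 in every WT library. Values above 1 in WT follow from the choice of miR-21a as most abundant there, so that side is no support. The log2 ratio had a mean of -0.43 ± 0.12 for EKO and of 0.26 ± 0.04 for WT (SD, n = 3 each, p = 0.1 by exact permutation, adjusted p = 0.2). Such a ratio shows unequal change only, and the share of let-7i-5p itself averaged 20.4% in EKO and 18.2% in WT.

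Of the other 9 among the 10 most abundant miRNAs, 7 gave a lower log2 ratio of miR-21a-5p in EKO with no overlap between the groups. All 9 ratios share miR-21a-5p, whose own levels did not overlap, so they are not separate results. The difference ranged from -1.47 against miR-148a-3p, which targets the LDL receptor transcript and had a log2 fold change of 0.98, to 0.09 against let-7g-5p. Against let-7f-5p it was -0.48, against miR-222-3p -0.52, against miR-30d-5p -0.44, against miR-7a-5p -0.83 and against let-7a-5p -0.29. Against let-7g-5p and miR-27b-3p (-0.0083) the groups overlapped. Those 2 had fold changes of a size like that of miR-21a-5p, at -0.58 ± 0.15 (let-7g-5p) and -0.49 ± 0.12 (miR-27b-3p), neither past the threshold (adjusted p = 0.0811 and 0.0786, edgeR).

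**Figure D4:**
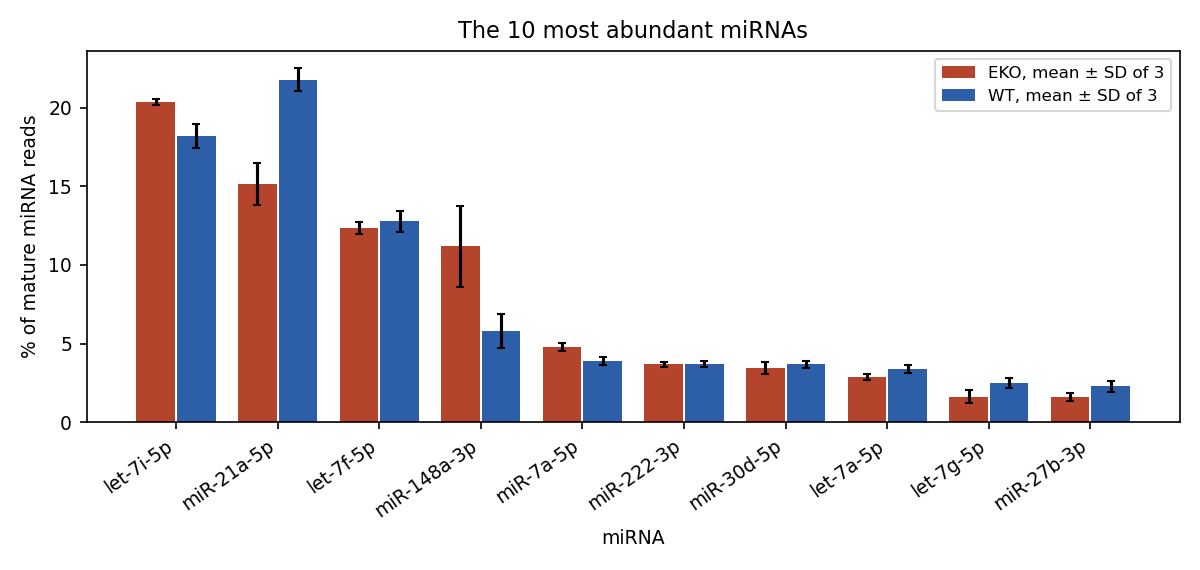
Share of mature miRNA reads (y axis, %) of the 10 most abundant miRNAs by their mean over 6 libraries (x axis), as mean ± SD of 3 EKO (red) and 3 WT (blue) libraries. In WT, miR-21a-5p has the tallest bar at 21.8%, and in EKO it stands at 15.1%, below let-7i-5p at 20.4%.

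The passenger arm miR-21a-3p was scarce and its level differed most within EKO. It had 11, 359 and 385 reads in the EKO libraries and 347, 543 and 769 in WT, which is 0.317, 9.08 and 10.4 CPM against 9.03, 13.1 and 18.8 CPM. The groups overlapped, and EKO replicates 2 and 3 both lay above the lowest WT library. EKO replicate 1, with a 95% Wilson interval of 0.177 to 0.568 CPM, lay 28.4-fold below the lowest of the other 5 libraries. The means were 6.59 ± 5.47 and 13.7 ± 4.90 CPM (SD, n = 3 each, p = 0.3 by exact permutation, adjusted p = 0.36). The fitted log2 fold change was -1.05 ± 0.95 (SE, adjusted p = 0.684, edgeR). Without EKO replicate 1 it was -0.49 ± 0.44 (adjusted p = 0.640, edgeR), so that 1 library sets its size.

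So deep a drop in 1 library was rare. Of the 265 miRNAs with at least 5 CPM in each of the other 5 libraries, EKO replicate 1 had 2 that lay 10-fold or more below the lowest of them, miR-21a-3p and miR-1306-5p. The same count gave miR-30c-2-3p in EKO replicate 3 and none in the other 4 libraries. The 11 reads of EKO replicate 1 were made up of 2 distinct sequences, against 8 and 18 in the other EKO libraries and 18, 30 and 28 in WT (exact permutation p = 0.2, adjusted p = 0.3). EKO replicate 1 also had the lowest total of mature reads (34651516) and the fewest detected miRNAs (543, against 577 to 698); their part in the drop was not tested.

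The miR-21a hairpin was the most one-sided of those that could be compared. Reads of the 5p arm outnumbered those of the 3p arm 433548-fold, 16765-fold and 15834-fold in the EKO libraries and 23239-fold, 16981-fold and 11746-fold in WT. The mean size of the log2 arm ratio over 6 libraries was 14.8, and none of the 52 other hairpins with both arms averaging at least 10 CPM and read in every library exceeded it (median of all 53, 3.37). The 3p arm passed that limit narrowly, at a mean of 10.1 CPM, and only through the WT libraries (13.7 CPM against 6.59 in EKO). Without EKO replicate 1 the mean size was 14.0, again exceeded by none of the 52. Hairpins with a scarcer arm were not compared. That limit also caps each ratio by the level of the abundant arm, which averaged 184653 CPM for miR-21a-5p. In the other hairpins no arm averaged more than 84809 CPM (miR-148a-3p). The first place of miR-21a therefore follows largely from its abundance and the limit, and is no separate result. Ligation in small RNA libraries favours some sequences, so these ratios are of reads rather than of molecules.

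As log2 ratios the values were 18.73, 14.03 and 13.95 in EKO and 14.50, 14.05 and 13.52 in WT, with only EKO replicate 1 outside the range of the rest. Their means of 15.57 ± 2.73 and 14.03 ± 0.49 (SD, n = 3 each) differed by 1.54 (exact permutation p = 0.7, adjusted p = 0.7). Without EKO replicate 1 the difference was -0.033, and the groups then overlapped, so no difference in arm ratio beyond the spread between replicates was found. The ratio of miR-21a also varied more over the 6 libraries than that of any of the other 52 hairpins, by 5.21 against a median of 1.51, but that order rests on EKO replicate 1. Over the other 5 libraries its range was 0.984 against a median of 1.28, and 35 of the 52 other hairpins had a wider one. Of all 53 hairpins, 13 (24.5%) had arm ratios lower in EKO with no overlap and 10 (18.9%) had higher ones. The largest differences in the higher direction after miR-425 (1.84) and miR-21a belonged to miR-331 (1.49). Like that of miR-21a, the 3p arm of miR-425 passed the 10 CPM limit only through WT (5.49 CPM in EKO, 16.4 in WT). That choice favours a higher ratio in EKO. In the lower direction the largest differences belonged to miR-671 (-1.67), miR-1843b (-1.30) and miR-674 (-1.25). For miR-671 the groups overlapped, with EKO replicate 1 at -8.90 and the other EKO libraries at -5.73 and -4.93.

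**Figure D5:**
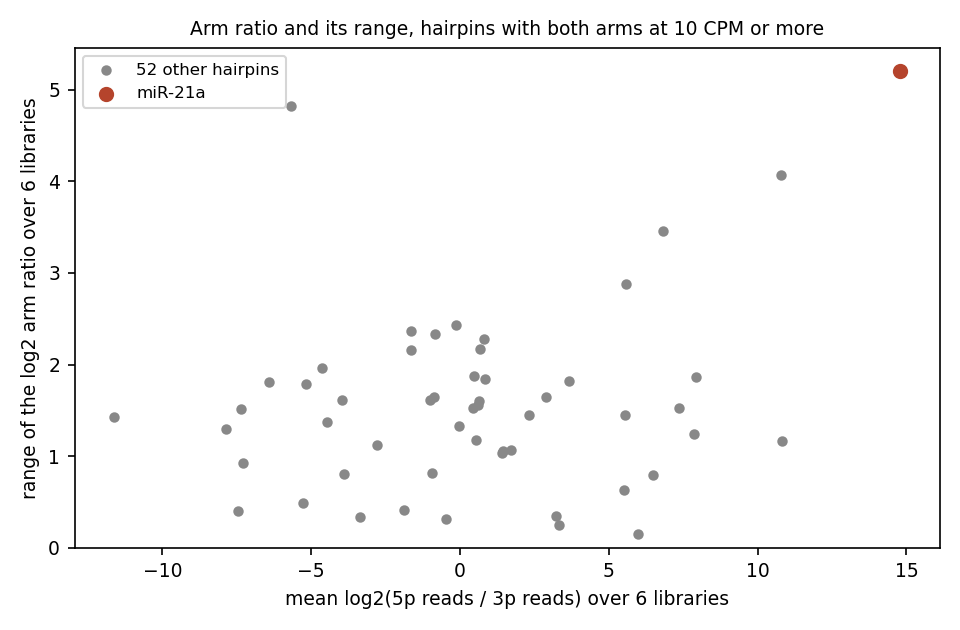
Range of the log2 arm ratio over 6 libraries (y axis) against its mean (x axis, log2 of 5p reads over 3p reads) for 53 hairpins with both arms averaging at least 10 CPM. The red point, miR-21a, lies at the top right, with a mean of 14.8 and a range of 5.21 that rests on EKO replicate 1.

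Reads of miR-21a-5p came in many forms, and fewer forms were seen in EKO, as for the libraries as a whole. The files held 1325, 1518 and 1666 distinct sequences of miR-21a-5p in EKO and 1951, 1940 and 2138 in WT, with no overlap between the groups (exact permutation p = 0.1, adjusted p = 0.2). Over all mature miRNAs there were 48275, 54098 and 57650 distinct sequences in EKO and 62650, 62572 and 67508 in WT, and 543, 577 and 591 miRNAs were detected in EKO against 686, 668 and 698 in WT. Neither pair of ranges overlapped, and the part of this library-wide difference in the forms of miR-21a-5p was not tested. Such forms include trimmed or extended ends and read errors, which grow with the number of reads. Of all distinct sequences on mature miRNAs they made up 2.74%, 2.81% and 2.89% in EKO and 3.11%, 3.10% and 3.17% in WT, a far smaller part than of the reads. Each distinct sequence of miR-21a-5p had 3599, 3965 and 3659 reads in EKO and 4133, 4753 and 4225 in WT on average. For miR-21a-3p there were 5.50, 44.9 and 21.4 reads per distinct sequence in EKO and 19.3, 18.1 and 27.5 in WT.

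Very few miR-21a-5p reads were divided with another reference: the split took 17.5 to 86 reads per library away, at most 0.00102% of its total. Reads of miR-21a-3p were not divided at all. The related miR-21b, which differs at 4 of 22 compared bases, had 244.5, 274.5 and 480 reads in EKO and 531.5, 752 and 709 in WT, again with no overlap (log2 fold change -0.86 ± 0.39, adjusted p = 0.260, edgeR). Per 1e+06 reads of miR-21a-5p that was 51.3, 45.6 and 78.7 in EKO and 65.9, 81.6 and 78.5 in WT, where the groups overlapped. The seed-sharing miR-21c had 16.5, 33.5 and 46.5 reads in EKO and 49.5, 117.5 and 99 in WT (-1.35 ± 1.13, adjusted p = 0.640, edgeR). Counts of these 2 are uncertain, since the authors' counting could place misread copies of miR-21a-5p there. Per 1e+06 reads of miR-21a-5p there were 3.46 to 12.7 reads of miR-21c.

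Of 13 other miRNAs inducible through NF-kB, AP-1 or STAT3, the routes that also raise miR-21, 12 were tested. Lower values in EKO were found for 9 and higher ones for 3, with a median of -0.34 and none past the threshold, where 335 of all 575 tested miRNAs (58.3%) had lower values and the median was -0.16. Among those averaging at least 10 CPM it was 5 of 9 lower, and 4 of 9 with centring on the median, where the list's median turned to 0.04. At an unadjusted p under 0.05 there were 3 of 12 lower and 1 higher, against 13.0% and 8.35% of all tested. Of the lower ones, the cell-cycle-linked miR-221-3p had means of 2943 ± 973 CPM in EKO and 6604 ± 1892 CPM in WT (SD, n = 3 each), with a log2 fold change of -1.14 ± 0.24 (adjusted p = 0.0766, edgeR). The others were miR-125b-5p, which targets Tnf and Irf4 transcripts, with an EKO mean of 153 ± 21.3 CPM against 244 ± 25.6 for WT, and miR-181b-5p, with 289.5 ± 30.4 against 406 ± 50.3 CPM. Higher was the Toll-like-receptor-induced miR-147-3p, with 75.0 ± 20.1 against 45.5 ± 2.47 CPM (log2 fold change 0.74 ± 0.22, adjusted p = 0.104, edgeR). Among those near 0 were miR-222-3p (0.02 ± 0.09), the most abundant of the list, miR-146a-5p (0.07 ± 0.15) and miR-146b-5p (-0.03 ± 0.11).

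The miRNAs whose levels followed miR-21a-5p most closely were found by the root mean square difference between log2 CPM profiles over the 6 libraries, each centred on its own mean. Closest of the miRNAs averaging at least 10 CPM was miR-674-5p, with EKO levels of 42.3, 42.2 and 49.2 CPM, WT levels of 66.3, 64.4 and 71.6 CPM and a difference of 0.0733 log2 units. Then came miR-29a-3p, which targets collagen transcripts (0.0992), miR-181b-5p (0.107), the hypoxia-induced miR-210-3p (0.108) and miR-152-3p (0.120), against a median of 0.361 over all others. In all 5 the EKO levels lay below the WT levels, as did those of 17.7% of the 575 tested miRNAs. For these 5 that follows from picking them by likeness to miR-21a-5p, so it is no separate result. The profile of miR-21a-3p had no such close match: miR-671-5p differed by 0.368 and miR-10a-3p by 0.546, then let-7c-1-3p (0.575), miR-155-5p (0.637) and miR-30b-5p (0.655), with a median of 1.22. Those 5 were likewise lowest in EKO replicate 1, which again follows from how they were picked. There miR-671-5p was at 1.56 CPM, and at 8.12 to 20.5 elsewhere.

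Markers of other cells were read beside these values. All 8 macrophage or myeloid miRNAs were detected, with a summed level of 5410 to 6877 CPM in EKO and 5523 to 6139 in WT. The like sums held members that lay in opposite directions, 6 lower and 2 higher in EKO, none past the threshold. The higher ones were miR-223-5p, with 2761 ± 107 CPM against 2042 ± 106 and no overlap, and miR-146a-5p, with 2197 ± 493 against 2119 ± 189. Among the lower ones, miR-223-3p had 257 ± 27.6 against 405 ± 99.6 CPM and miR-142a-5p 183 ± 48.8 against 291 ± 53.4, both also without overlap. Over all tested miRNAs, 17.7% were lower and 11.8% higher without overlap. Of the 8, 4 were lower and 1 higher at an unadjusted p under 0.05 (edgeR), against 13.0% and 8.35% of all tested. Their median log2 fold change was -0.63, against -0.16 over all tested. The arms of miR-511, from an intron of the macrophage gene Mrc1, were scarce in both genotypes. Its 5p arm, miR-511-5p, had levels of 1.62, 0.0759 and 0.378 CPM in the EKO libraries, all below those of WT (4.53, 6.73 and 6.04 CPM), while miR-511-3p was at 0 in EKO replicates 1 and 2 and at most 1.37 CPM elsewhere. Fibroblasts and other stromal cells are also rich in miR-21, and all 8 stromal members were detected, with sums of 3859 to 4077 CPM in EKO and 4005 to 4140 in WT. Most of that sum was miR-140-3p, with an EKO mean of 3680 ± 159 CPM against 3559 ± 75.3 for WT. The log2 fold changes of the 6 tested stromal references were below 0 for 4 and above 0 for 2 (miR-140-3p at 0.08 and miR-214-3p at 3.55 ± 2.61), none past the threshold. Their median was -0.95, against -0.16 over all tested. At an unadjusted p under 0.05 (edgeR), 2 of the 6 were lower and 0 higher, against 13.0% and 8.35% of all tested. Lower in EKO without overlap, as were 17.7% of all tested, were miR-143-3p, with 88.7 ± 22.8 against 187 ± 22.9 CPM, miR-140-5p, with 175 ± 59.6 against 324 ± 70.0, and miR-199a-5p, with 0.598 ± 0.844 against 3.76 ± 0.431. The merged entry of miR-199a-3p and miR-199b-3p had 1.99 ± 1.86 against 10.3 ± 3.45 CPM, also without overlap, and miR-145a-5p was at 0 in all libraries but WT replicate 2 (0.992 CPM). All 5 lymphoid members were detected, with sums of 537 to 649 CPM in EKO and 728 to 846 in WT, which did not overlap. Most of these sums was miR-181a-5p and miR-181b-5p. Of the 4 tested, 3 were lower in EKO and 1 higher (miR-181d-5p, log2 fold change 0.13 ± 0.22), none past the threshold. Levels of miR-150-5p were 3.63 ± 1.56 against 5.21 ± 0.690 CPM, with overlap. The untested miR-181c-5p averaged 1.11 CPM in EKO and 0.0815 in WT. The 2 endothelial or megakaryocyte miRNAs reached 64.6 to 73.1 and 76.3 to 79.9 CPM, with miR-126a-5p at 0 in 5 libraries. Of the 5 erythroid miRNAs 3 were detected (117 to 145 and 127 to 160 CPM, both arms of miR-144 at 0), and all 6 epithelial ones (114.5 to 174 and 140 to 157 CPM). Nearly all of the erythroid sum was the merged entry of miR-486a-5p and miR-486b-5p, with a log2 fold change of -0.14 ± 0.18 and overlap. The scarce miR-451a was higher in EKO without overlap, as were 11.8% of all tested. Its EKO libraries stood at 5.92, 5.31 and 1.29 CPM, while WT reached at most 0.587 CPM. The fitted change of miR-451a was 4.49 ± 2.03 (SE), short of the threshold (adjusted p = 0.260, edgeR). Of the 5 muscle, neuron and liver miRNAs 3 were detected, at 105 to 160 CPM in EKO and 48.2 to 62.1 in WT, nearly all of it miR-122-5p, with miR-133a-3p and miR-124-3p at 0. The part of these cells in the lower miR-21a-5p was not tested.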

How the data were processed

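Small RNA of 3 EKO and 3 WT macrophage samples was measured. Total RNA came from RNeasy Mini columns and libraries from an NEB small RNA kit, per the labels' protocols. The submitters' processing notes name mm9; aligner and counter: not given in the sources used here. Per the file headers, the authors deposited the total read count, the number of distinct sequences, and an estimated count with shared reads divided among references; barcode counts summed to 0. Absent references were taken as 0, and 73 stem-loop references were left out (at most 0.00161% of reads). CPM are plain, with no TMM scaling.

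Rounded estimated counts were fitted with edgeR 4.0.16 (TMM, filterByExpr, quasi-likelihood test) in R 4.3.3, also checked with DESeq2 1.42.0 and limma-voom (3.58.1), and tested on simulated data. Exact permutation tests were two-sided (scipy 1.17.1). Mature sequences gave GC content for 221 of 251 miRNAs (88.0%). The trend removed was a local regression with a span of 0.75 on log2(CPM + 1). Other alternatives are in the closing section.

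The members and lists were chosen with earlier results of these data known. Named are both arms, their seed relatives, the 10 most abundant miRNAs, the 5 nearest profiles, up to 4 list members with the smallest p and the 3 extreme arm ratios per direction; miR-1306-5p, miR-30c-2-3p and single markers were chosen after their values were seen. One further list is not reported here.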

Additional observations from a re-analysis of the deposited data

Results flagged for a closer look

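The stem-loop entries, which the comparisons leave out, held reads that stood apart in 1 library. The mir-21c stem-loop had 32 reads in EKO replicate 1 after division of shared reads and 0 in the other 5 libraries, the 3 WT libraries included. In the same library the split took 48.5 reads away from miR-21a-5p, and miR-21a-3p had its 11 reads. Where the 32 stem-loop reads came from was not tested. The stem-loops of mir-21a and mir-21b had at most 3 and 6 reads in any library. Groups of 3 libraries were not searched for outlying values.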

How the results depend on the processing

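No alternative changed the direction of either arm's fold change, of its share, of its distinct sequences or of the ratio to let-7i-5p. For miR-21a-5p the log2 fold change ran from -0.54 to -0.13 over 25 alternatives (adjusted p from 0.00207 to 0.475), and it passed in 9: DESeq2 (-0.42), limma-voom (-0.50), no low-count filter (-0.47), a mean of at least 10 CPM (-0.47), that filter with median centring (-0.43), the replicate block (-0.50, adjusted p = 0.00207), without EKO replicate 3 (-0.54, adjusted p = 0.0311), and with the filter without EKO replicate 1 or 3 (-0.43 and -0.49). Leaving out each library gave -0.54 to -0.44, and -0.49 to -0.40 under the filter. For miR-21a-3p the range was -1.83 to -0.45. It passed with the replicate block and GC correction together (-1.83, adjusted p = 0.0188) under the 10 CPM filter, which it passes only through the WT libraries, so that call is no support. Without single libraries it lay between -1.53 and -0.49. The arm ratio's difference of 1.54 turned to -0.033 without EKO replicate 1 (1.54 in the replicate block, 2.35 without EKO replicate 3), because that library alone holds the high ratio.

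The reported edgeR test called 0 miRNAs. DESeq2 called 100 (212 more had no adjusted p), limma-voom 32, no low-count filter 52, a mean of at least 10 CPM 59, with GC correction 40, with median centring 48, the replicate block 62, and the block with GC correction 93. Leaving out libraries gave 0 to 45, and under the filter 12, 1 and 92 for the first, the second and the third EKO library and 0 for each WT library; the cause was not tested. Libraries were not paired by their replicate numbers, as the deviations from the group means correlated at 0.18, -0.07 and 0.33 within a number, and 1 of 3 correlated best with its own number. Leaving out libraries under the 10 CPM filter and median centring were added after seeing the data. Counting error was widest for the 3p arm, at 11 reads in EKO replicate 1.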
